A study of Homo sapiens with 24 samples.

Results

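BCR and ABL1 are the genes joined in the BCR-ABL1 fusion of chronic myeloid leukemia, and HAP1, a near-haploid human cell line, descends from a leukemia line that carries this fusion. The signal of 8-oxo-7,8-dihydroguanine (OG) in these genes was read from a table of 1 kb bins. All bins with a start inside chr22:23179001-23319000 (BCR) or chr9:130713001-130888000 (ABL1) of GRCh38 were taken, which gave 140 bins for BCR and 175 for ABL1, 315 of 2835235 bins in all. The 1000 bins in the 500 kb on either side of each gene served for comparison. In OG-seq, OG is labeled with biotin, fragments that carry it are captured on beads, and the captured DNA is sequenced along with input DNA that was not captured. The 4 genotypes were unedited HAP1 (WT), MUTYH-/, OGG1-/ and MUTYH-/ X OGG1-/ (DKO). The knockouts were made with CRISPR-Cas9, 2 clones per genotype were used, and the DKO clones derive from an OGG1-/ clone. The labels name no treatment. Each genotype has 3 columns in the table (n = 3), 12 in all. By the sample titles, 2 of the 3 pull-downs of each genotype come from the same clone. The tests below treat such columns as independent. The number of a column is not tied here to a clone or an experiment, so p-values measure the spread between columns, which may be partly technical.

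OG is the most studied oxidation product of guanine and pairs with adenine when it is copied. The DNA glycosylase OGG1 removes OG opposite cytosine, and MUTYH removes the adenine placed opposite OG. BCR encodes a protein with a coiled-coil, a kinase and GTPase-regulating domains, and ABL1 encodes a tyrosine kinase of the cytoplasm and nucleus. In the common fusion, the 5′ part of BCR, up to exon 13 or exon 14, is joined to ABL1 from exon 2 onward. The fused protein forms oligomers through the coiled-coil of BCR, which keeps the kinase of ABL1 active. The sites where the chromosomes broke in HAP1 were not read from these data, and the values below are laid on the unbroken reference.

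BCR (ENSG00000186716.21) and ABL1 (ENSG00000097007.20) are both on the plus strand. BCR was split around its major breakpoint cluster, the stretch with exons 12 to 16, into a 5′ part of 109 bins, the cluster of 8 bins at chr22:23288001-23296000, and a 3′ part of 23 bins. ABL1 was split where exon 2 begins, into a 5′ part of 141 bins that holds both alternative first exons, and a 3′ part of 34 bins that holds the kinase. The exon ends that meet in the fused transcript are shown because they set these borders. The lines give the last 30 bases of BCR exon 13 (chr22:23289592-23289621), the last 30 bases of exon 14 (chr22:23290384-23290413) and the first 30 bases of ABL1 exon 2 (chr9:130854064-130854093), read from hg38.
BCR exon 13 end: acagcattccgctgaccatcaataaggaag
BCR exon 14 end: actcagccactggatttaagcagagttcaa
ABL1 exon 2 start: aagcccttcagcggccagtagcatctgact

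The introns of the breakpoint cluster are rich in runs of guanine, the base from which OG forms. A G4 motif was searched on both strands as 4 runs of at least 3 G with loops of 1 to 7 bases, the pattern of sequences that can fold into a G-quadruplex. It was found in 7 of the 8 bins of the cluster (87.5 %), compared to 21.1 % of the bins of the 5′ part of BCR, 21.7 % of its 3′ part and 9.69 % of all bins. In ABL1 the shares were 6.38 % in the 5′ part and 11.8 % in the 3′ part. The cluster held 10 motifs, 4 on the plus and 6 on the minus strand, from 17 to 33 bases long and all intronic. The motifs of intron 13 and intron 14, next to the exons that end the BCR part of the fusion, are shown 5′ to 3′ on the strand that carries the G runs, with runs of at least 3 G in capitals. They lie, in the order printed, at chr22:23289914-23289936 (minus strand), chr22:23290053-23290077 (minus), chr22:23290482-23290504 (plus), chr22:23291266-23291290 (plus) and chr22:23292020-23292041 (minus) of hg38.
Intron 13, motif 1: GGGctGGGaggacGGGagtGGGG
Intron 13, motif 2: GGGGtgatgtGGGatgtGGGtGGGG
Intron 14, motif 1: GGGcaGGGtgtGGGGaaacaGGG
Intron 14, motif 2: GGGattgttGGGGaatGGGGttGGG
Intron 14, motif 3: GGGGtgcaGGGGGaaGGGaGGG

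The deposited value of a bin is the number of OG reads left after scaled input reads were subtracted. Each value was divided by the mean of its column over all bins, so that a scaled value of 1 is the genome mean. The columns held 59598911 to 113911793 OG reads, with a mean per bin of 21.0 to 40.2, and their input runs had 27.7 to 35.8 reads per bin. BCR rested on 3817 to 7289 OG reads per column and ABL1 on 4471 to 8226, so the counting error of a column was on average 0.0756 for BCR and 0.0649 for ABL1 on the scaled level. No bin of either gene was at 0 in all columns.

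Both genes carried more OG signal than the genome mean. The scaled level of BCR was 1.57 ± 0.217 (SD over 12 columns), with a lowest column of 1.24, a median of 1.59 and a highest of 1.89. That of ABL1 was 1.30 ± 0.171, from 0.990 through a median of 1.29 to 1.59. Only 1 column, in ABL1, lay below 1. These levels are of subtracted values and are not ratios to input. Scaled OG reads divided by scaled input reads gave 1.10 ± 0.054 in BCR and 1.05 ± 0.0439 in ABL1 (SD over 12 columns). Scaled input reads were at 1.15 and 1.09. Of the bins of BCR, 86.4 % had a mean above 1, compared to 66.9 % in ABL1 and 47.5 % of all bins. Among 11659 protein-coding genes with at least 20 bins, 17.3 % had a higher mean than BCR and 36 % a higher mean than ABL1, where the median gene was at 1.15.

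The order of the genes followed their GC content, which was 53.1 % in BCR and 44.6 % in ABL1, against 40.9 % over all bins. Across 20 strata of GC content with equal numbers of bins, the mean scaled value of all bins rose from 0.414 in the lowest to 1.66 in the highest. When each value was divided by the mean of its stratum, BCR came to 0.994 ± 0.0808 and ABL1 to 1.06 ± 0.120. On that scale, 68.7 % of genes lay above BCR and 48 % above ABL1. The mean of all bins on that scale was 0.990.

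**Figure D1:**
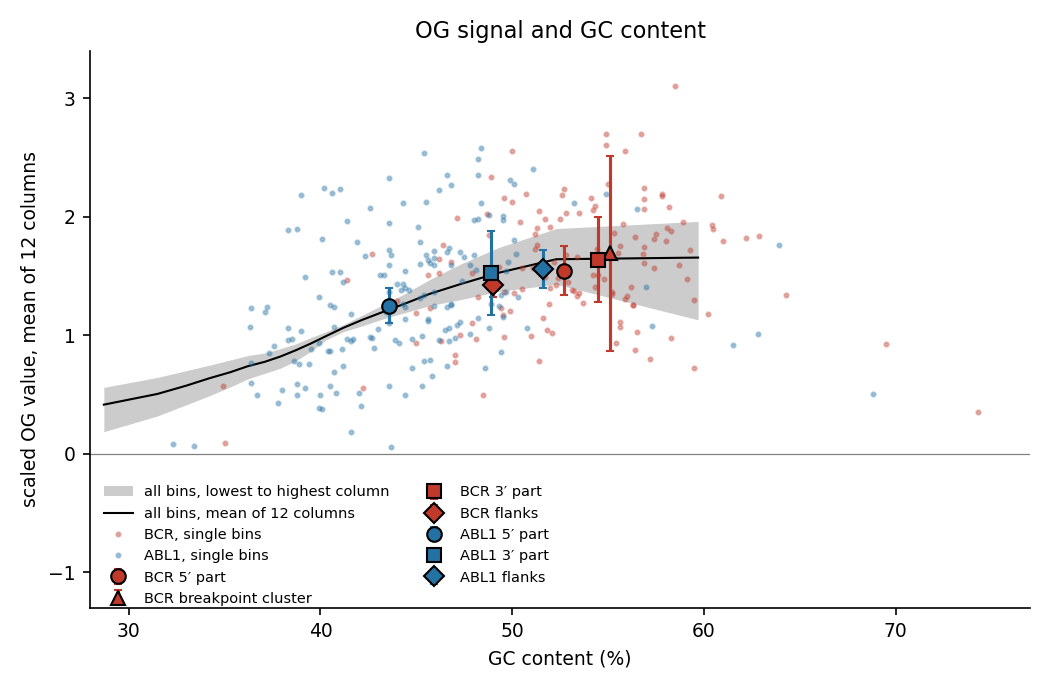
Mean scaled OG value over 12 columns (1 is the mean of all bins) against GC content in %. The black line and grey band give all bins in 20 GC strata, as the mean and the range of the columns, small points are single bins and large symbols are parts of the genes or their flanks with SD over 12 columns. The 5′ and 3′ parts of BCR and ABL1 lie close to the line, at 1.55 and 1.64 and at 1.25 and 1.52.

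ABL1 lay in a dip of its neighbourhood and BCR slightly above its own. The mean of ABL1 was lower than that of its flanks by 0.259 ± 0.0403 (SE), 1.30 against 1.56, and was lower in 12 of 12 columns (exact two-sided sign-flip permutation test, p = 0.000488, the smallest this test can give). The sign-flip tests here and below take the 12 columns as independent. Some columns of different genotypes deviated together over 100 kb windows, with r up to 0.46, so the p of these tests may be too small. The flanks of ABL1 had a GC content of 51.6 %. After division by the GC stratum the difference was 0.00526 (exact sign-flip permutation test, p = 0.89). BCR was higher than its flanks by 0.143 ± 0.0489, 1.57 against 1.43, in 8 of 12 columns (p = 0.0181 in the same exact permutation test), and its flanks had a GC content of 49.0 %. That difference was -0.0237 within GC strata (exact permutation p = 0.455), and it turned to -0.127 when only flank bins inside protein-coding genes were used (exact permutation p = 0.0278).

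**Figure D2:**
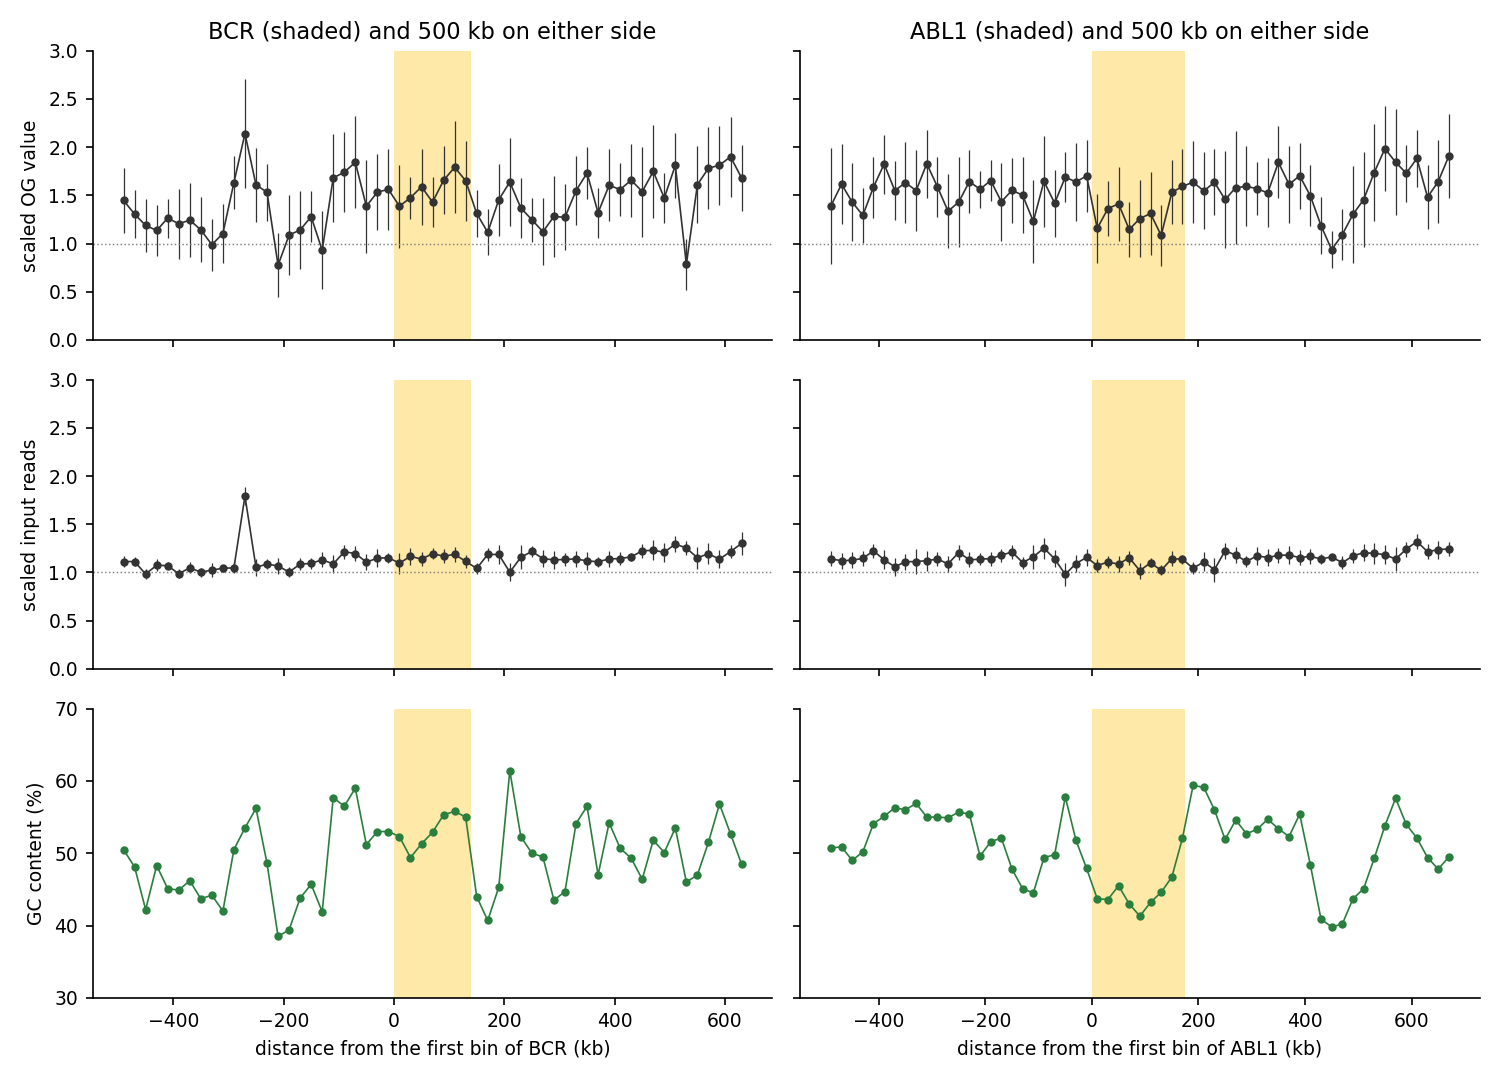
Scaled OG value (top), scaled input reads (middle) and GC content in % (bottom) in windows of 20 kb, as mean and SD over 12 columns, against the distance in kb from the first bin of BCR (left) or ABL1 (right). The OG value moved with the GC content, and the input stayed between 1.02 and 1.20 inside both genes. The window centred 270 kb before BCR stood out with an input of 1.79.

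Within ABL1, the part from exon 2 onward, which enters the fusion, had the higher signal. The 3′ part was at 1.52 ± 0.353 (SD, 12 columns) and the 5′ part at 1.25 ± 0.147, a difference of 0.275 ± 0.0811 (SE) that was positive in 9 of 12 columns (exact two-sided sign-flip permutation test, p = 0.0083). By genotype, the 3′ part minus the 5′ part was 0.0517, 0.302 and -0.0825 in the WT columns and 0.681, -0.0467 and 0.297 in MUTYH-/. It was 0.155, 0.702 and 0.497 in OGG1-/ and 0.388, 0.444 and -0.0904 in DKO. Columns above and below 0 occurred in every genotype but OGG1-/. MUTYH-/ column 1, OGG1-/ column 2 and DKO column 2, at 0.681, 0.702 and 0.444, deviated together over 100 kb windows (r of 0.34 to 0.46). The test takes columns as independent, so its p may be too small. The 3′ part had a GC content of 48.9 % and the 5′ part of 43.6 %, and within GC strata the difference was 0.000775 (exact permutation p = 0.987). A split at the middle bin of ABL1 in place of exon 2 gave 0.0964 (exact permutation p = 0.208).

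Within BCR, the 5′ part, which enters the fusion, and the 3′ part, which does not, were not told apart. They were at 1.55 ± 0.206 and 1.64 ± 0.357, a difference of 0.0917 ± 0.0841 (SE) that was positive in 7 of 12 columns (exact two-sided sign-flip permutation test, p = 0.294). Their GC contents were 52.7 % and 54.5 %. The difference was positive in all 3 columns of OGG1-/ (0.0922, 0.377 and 0.215) and of mixed sign in the other genotypes. Split at the middle bin, the second portion of BCR was higher by 0.239 (exact permutation p = 0.00537), with a GC content of 55.2 % against 51.1 %.

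The input reads, which follow the amount of DNA, showed no large step between the parts of the genes as split here. The borders follow the exons joined in the common fused transcript. The breaks in the DNA of HAP1 were not read, so a step at the breaks was not tested. In windows of 20 kb the input stayed between 1.02 and 1.20 inside both genes. Scaled in the same way, input was at 1.16 in the 5′ part, 1.19 in the cluster and 1.12 in the 3′ part of BCR, and at 1.08 and 1.14 in the 5′ and 3′ parts of ABL1. The 3′ part of BCR was lower by 0.0382 ± 0.0148 (SE; exact two-sided sign-flip permutation test, p = 0.0278) and that of ABL1 higher by 0.0554 ± 0.0192 (p = 0.0161, same exact permutation test). Within GC strata these differences were -0.00943 (p = 0.503) and 0.0156 (p = 0.425) in the same exact permutation test. The ratio of 3′ to 5′ input was 0.967 ± 0.0436 (SD) in BCR, from 0.892 to 1.03 over the columns, and 1.05 ± 0.0621 in ABL1, from 0.944 to 1.15. For scale, HAP1 is known to carry an extra copy of a segment of the long arm of chromosome 15, where PML and MAP2K1 lie. Their input was at 2.27 and 2.29 and their scaled OG value at 2.87 and 2.70, while no other gene of the lists described further on exceeded an input of 1.27.

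**Figure D3:**
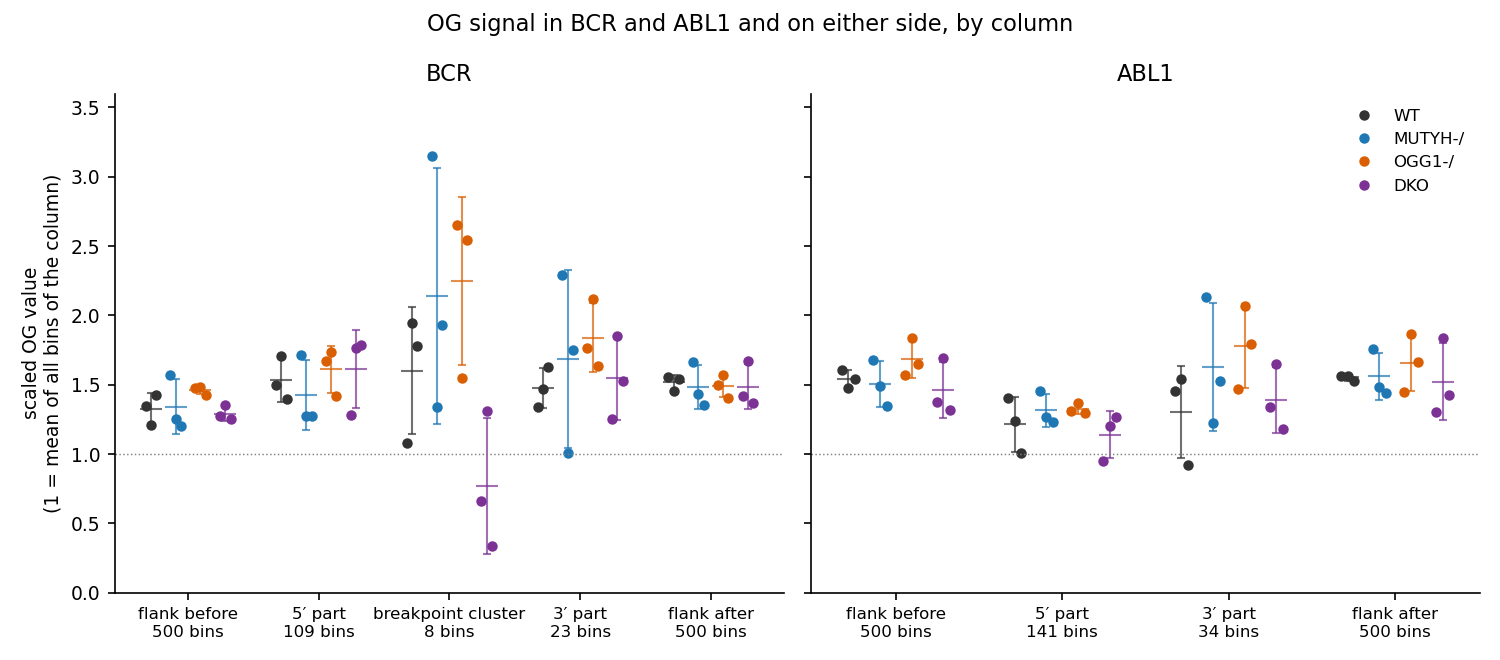
Scaled OG value (1 is the mean of all bins of the column) in the flanks and parts of BCR (left) and ABL1 (right). Points are the 3 columns of each genotype, and horizontal marks with bars give mean and SD. The breakpoint cluster of BCR, with 8 bins, had the widest spread, from 0.341 to 3.15.

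The breakpoint cluster of BCR was at 1.69 ± 0.823 (SD, 12 columns), compared to 1.01 ± 0.441 after division by the GC stratum. The WT columns were at 1.08, 1.95 and 1.78, the MUTYH-/ columns at 3.15, 1.34 and 1.93, the OGG1-/ columns at 2.65, 1.55 and 2.54 and the DKO columns at 0.662, 1.31 and 0.341. The counting error of a column was 0.323 here. The lowest columns were of DKO and the highest of MUTYH-/ and OGG1-/, and every knockout overlapped with WT. The differences from WT were 0.541 in MUTYH-/, 0.647 in OGG1-/ and -0.831 in DKO (exact two-sided permutation tests, p = 0.5, 0.3 and 0.2, where 0.1 is the smallest that 3 columns against 3 allow). Adjusted over 15 comparisons, of 5 parts of the genes in 3 knockouts, all p were 0.8. The bins of exon 12, exon 13, exon 14 and exon 16 had means of 1.93, 2.08, 1.86 and 2.07, and that of exon 15, between them, was at 0.785. Over the whole of BCR, bins with a G4 motif averaged 1.60 at a GC content of 54.6 % and bins without 1.56 at 52.7 %. In ABL1 the averages were 1.21 at 50.5 % and 1.31 at 44.1 %. These differences were not tested.

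The bins with the transcription starts were low for these genes, at rank 139 of the 140 bins of BCR, and at rank 163 (exon 1a) and 133 (exon 1b) of the 175 of ABL1. The start of BCR (chr22:23180001-23181000, GC content 74.3 %, 123 CpG, exon 1) was at 0.350 ± 0.646 (SD, 12 columns), from -0.902 through a median of 0.577 to 1.30. The start at exon 1a of ABL1 (chr9:130835001-130836000, 68.8 %, 105 CpG) was at 0.506 ± 0.386, from -0.123 through 0.424 to 1.00. That at exon 1b (chr9:130713001-130714000, 61.5 %, 64 CpG) was at 0.914 ± 1.11, from -0.787 through 0.909 to 2.19. Few reads lay under these values. The BCR start had between 8 and 20 OG reads in a column, against 6 to 26 of input, and the exon 1a start had 2 to 16 and 1 to 14. Scaled to their own genome means, OG and input reads were both low, at 0.455 and 0.485 for the BCR start, 0.314 and 0.241 for exon 1a and 0.814 and 0.774 for exon 1b.

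The starts were set beside other starts of like GC content. Over 18174 bins with the start of a protein-coding gene the median was 1.23. These bins hold the outermost annotated boundary of a gene, which for ABL1 is the start of exon 1b. The BCR and exon 1a bins hold transcript starts inside that boundary, so they are compared with starts of another kind. Among the 1127 start bins within 2.5 percentage points of the GC content of the BCR start the median was 0.701, and 11.2 % were lower than BCR. The corresponding medians were 1.03 for exon 1a (2201 bins, 7.09 % lower) and 1.40 for exon 1b (3191 bins, 16.4 % lower). The scaled OG and input reads of these start bins had medians of 0.41 and 0.3 for BCR. For exon 1a they were 0.667 and 0.533, and for exon 1b 1.01 and 0.859. A subtracted value also depends on how many reads a bin holds, so these shares do not rank OG per input read. The bases before the BCR and exon 1a starts are shown, with CG in capitals, to show where CpG sites lie. The first lies at chr22:23180259-23180364 before the earliest start of a coding transcript of BCR, and the second at chr9:130835004-130835253 before exon 1a of ABL1, both plus strand and from the RefSeq promoter table (GRCh38.p14). The 106 bases of BCR hold 4 CpG, so most of the 123 in its start bin lie outside them, and the 250 bases of ABL1 hold 33. The BCR stretch is cut at its earliest coding start and leaves out bases nearer the start in that table. The stretches thus differ in length and place, and their CpG density is not compared. The 250 bases before exon 1b of ABL1, not shown, hold 25 CpG. That table spans 300 bases around a start, with 27 CpG for BCR and 42 for ABL1, and 28.2 % and 5.85 % of its 35116 promoters hold as many or more.
BCR: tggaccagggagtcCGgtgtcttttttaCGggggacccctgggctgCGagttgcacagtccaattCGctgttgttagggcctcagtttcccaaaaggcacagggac
ABL1 exon 1a: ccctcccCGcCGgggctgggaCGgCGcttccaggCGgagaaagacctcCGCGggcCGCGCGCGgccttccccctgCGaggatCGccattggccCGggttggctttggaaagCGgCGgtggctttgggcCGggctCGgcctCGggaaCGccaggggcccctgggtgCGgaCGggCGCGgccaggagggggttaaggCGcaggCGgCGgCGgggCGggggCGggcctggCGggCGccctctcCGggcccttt

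Single bins ranged from 0.0920 to 3.10 in BCR and from 0.0531 to 2.58 in ABL1 as means over 12 columns. Bin means and GC content correlated with r = 0.227 over the 140 bins of BCR and r = 0.319 over the 175 of ABL1, where the bins share their libraries. The highest bins of BCR were those of exon 20 (3.10 ± 1.88, SD) and exon 18 (2.70 ± 1.71), both in the 3′ part, and an intronic bin at chr22:23237001-23238000 (2.70 ± 2.11). Its 3 lowest were the start bin and 2 intronic bins, at chr22:23228001-23229000 (0.0920 ± 1.03) and chr22:23248001-23249000 (0.492 ± 1.07). In ABL1 the 3 highest (2.49 to 2.58) and the 3 lowest bins (0.0531 to 0.0812) were all intronic and in the 5′ part. The bin with exon 2 and exon 3 of ABL1, where the fused portion begins, was at 2.07 ± 1.50. Bins with an exon averaged 1.72 and purely intronic bins 1.53 in BCR, with GC contents of 57.8 % and 52.0 %. The same averages were 1.50 and 1.28 in ABL1, with 52.5 % and 43.7 %.

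**Figure D4:**
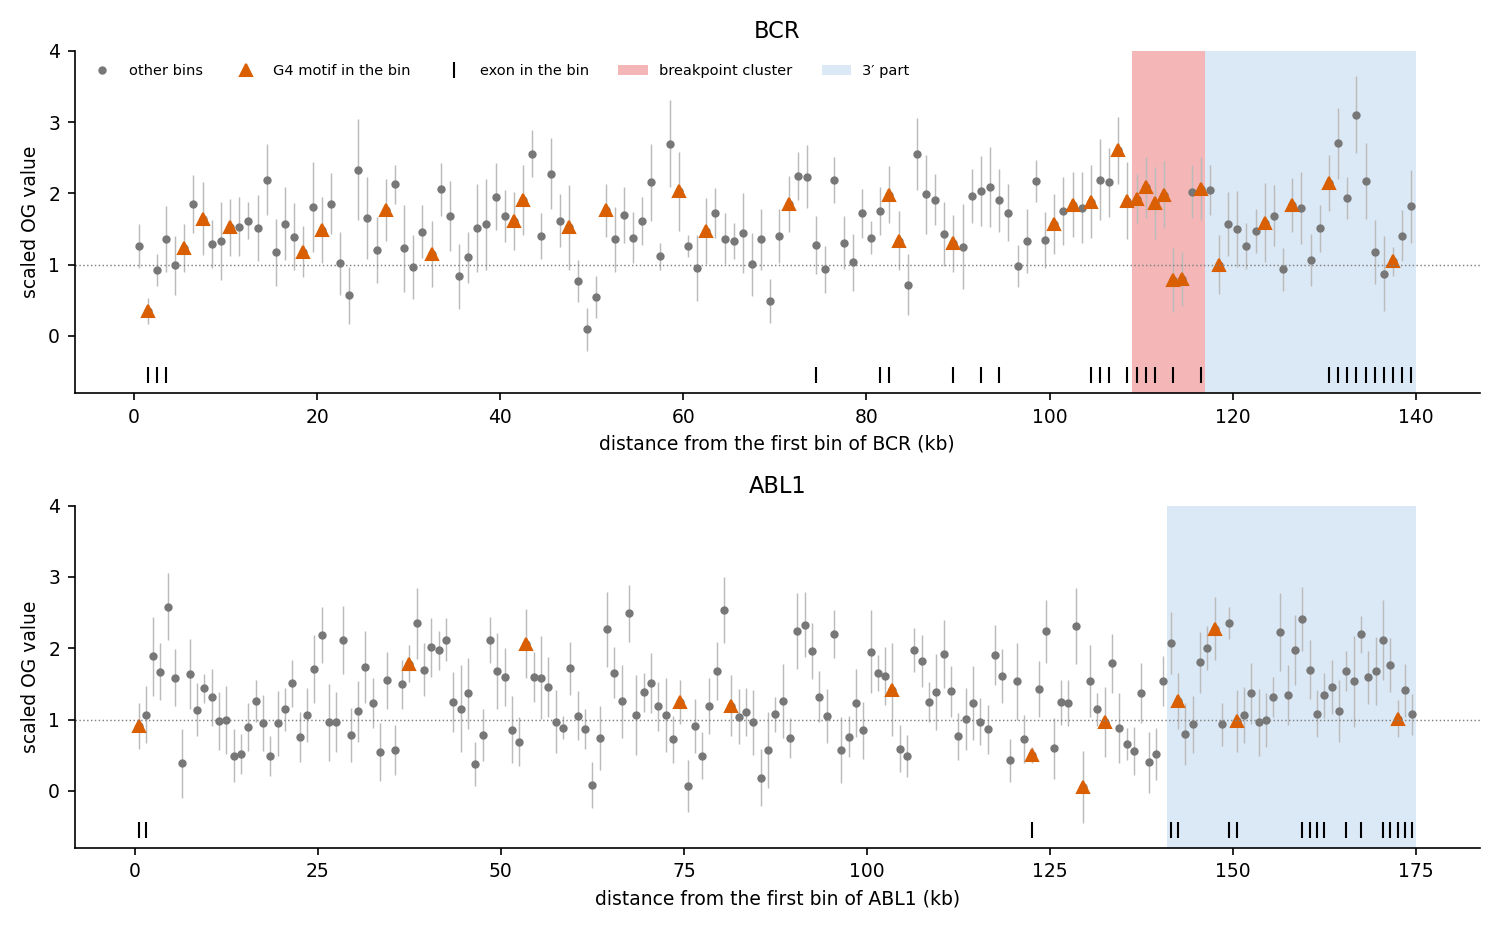
Mean scaled OG value of each 1 kb bin (points, bars are SE over 12 columns) against the distance in kb from the first bin of BCR (top) or ABL1 (bottom). Triangles mark bins with a G4 motif, ticks mark bins with an exon, and shading marks the breakpoint cluster and the 3′ part. In BCR 7 of 8 cluster bins hold a motif, and the start bin at the left edge is at 0.350.

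A bin was taken as OG-enriched (OG-EB) in a genotype when 2 or more of its 3 columns reached the 95th percentile of their own values. The authors use this name for a much smaller set. They ranked the log2 ratio of OG to input and also asked for both technical replicates, so the counts below are not comparable with theirs. In WT, 5 bins of BCR and 1 of ABL1 passed (3.57 % and 0.571 %), compared to 1.34 % of all bins. In MUTYH-/ there were 3 and 6 (2.14 % and 3.43 %, 1.33 % of all bins), in OGG1-/ 13 and 4 (9.29 % and 2.29 %, 1.54 % of all bins), and in DKO 5 and 1 (3.57 % and 0.571 %, 1.3 % of all bins). Of the 315 bins, 32 were OG-EBs in 1 genotype and 3 in 2 genotypes, with none in more. Of the bins that passed in any genotype, 8.57 % thus passed in 2 or more, compared to 12.1 % over all bins. Ranked over all bins after division by the mean of the GC stratum, 1 bin passed in WT and 0 in the other genotypes. The shares of all bins were then 1.29 % in WT and 1.34 %, 1.68 % and 1.45 % in the knockouts, in the order above. Stratum means rose from 0.414 to 1.66 with GC content. Division by a low mean widens the spread of GC-poor bins, so this ranking can favour them. These counts are thus no measure of enrichment at like GC content. No bin of either gene reached the 99th percentile in 2 columns of a genotype, which 0.145 %, 0.145 %, 0.182 % and 0.136 % of all bins did. No test was made between the genotypes.

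Neither gene differed between a knockout and WT beyond the spread of the columns. For BCR, the WT columns were at 1.45, 1.68 and 1.46, the MUTYH-/ columns at 1.89, 1.24 and 1.39, the OGG1-/ columns at 1.75, 1.79 and 1.52 and the DKO columns at 1.24, 1.75 and 1.66. All knockouts overlapped with WT. The differences from WT were -0.0205 in MUTYH-/, 0.156 in OGG1-/ and 0.0257 in DKO (exact two-sided permutation tests, p = 0.9, 0.2 and 0.9). For ABL1, the WT columns were at 1.41, 1.30 and 0.990, the MUTYH-/ columns at 1.59, 1.26 and 1.29, the OGG1-/ columns at 1.34, 1.50 and 1.39 and the DKO columns at 1.02, 1.29 and 1.25, and here too each knockout overlapped with WT. The differences were 0.145, 0.181 and -0.0439 (exact two-sided permutation tests, p = 0.6, 0.3 and 0.7). Adjusted over these 6 comparisons all p were 0.9. With 3 columns a group, none could have passed 0.05. In a limma fit over 11659 genes, OGG1-/ minus WT was 0.148 ± 0.149 (SE) for BCR and 0.182 ± 0.115 for ABL1 (adjusted p = 0.95 and 0.945). Of the 5 parts of the genes, the 3′ part of BCR in OGG1-/ (1.77, 2.12 and 1.64) did not overlap with WT (1.34, 1.47 and 1.63), at an exact permutation p of 0.1 and an adjusted p of 0.8.

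Single bins were compared by limma on log2 of the scaled reads plus 1, and called when the log2 fold change exceeded 0.5 in size and the unadjusted p did not exceed 0.01. All 315 bins passed the filter on low values. Called gains and losses numbered 1 and 1 in MUTYH-/ (0.3 % and 0.322 % of 2802495 bins), 2 and 0 in OGG1-/ (0.299 % and 0.256 %) and 1 and 1 in DKO (0.296 % and 0.312 %), all in BCR. The shares among the 315 bins were near this background, and no bin of either gene passed an adjusted p of 0.05, with a smallest adjusted p of 0.985. At an unadjusted p under 0.05, 20, 15 and 20 of the 315 bins passed in MUTYH-/, OGG1-/ and DKO, compared to 4.39 %, 4.1 % and 4.31 % of all bins tested. The estimated weight of the variance trend in this fit was infinite, so the spread of a bin between its own columns did not enter its p.

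Among the called bins, an intronic bin of the 3′ part (chr22:23303001-23304000) rose in MUTYH-/. It was at -0.192, 0.634 and 0.0642 in WT and at 4.93, 1.14 and 2.97 in MUTYH-/ (log2 fold change 3.42 ± 1.32, SE). In DKO it was at 2.96, 1.97 and 2.02 (limma, unadjusted p = 0.014), short of the call. The exon 20 bin (chr22:23312001-23313000) was called a loss in MUTYH-/, from 4.18, 4.14 and 2.61 to 5.09, -0.549 and 0.806 (-2.19 ± 0.84), although its columns overlap. In OGG1-/, an intronic bin at chr22:23198001-23199000 went from 1.30, -0.752 and 0.216 to 3.68, 3.86 and 3.81 (3.35 ± 1.27). The bin of exon 20 and exon 21 went from -0.123, 3.38 and -0.119 to 3.50, 4.85 and 3.29 (3.46 ± 1.33), with overlap. In DKO, an intronic bin at chr22:23192001-23193000 went from 0.216, -0.388 and 0.754 to 4.19, 3.15 and 4.45 (3.61 ± 1.38). Another, at chr22:23237001-23238000, went from 7.10, 4.75 and 2.68 to 2.40, 1.45 and -0.818 (-2.62 ± 0.95). In MUTYH-/ that bin was at 1.74, 0.988 and 0.778 (limma, unadjusted p = 0.0403), short of the call. The unadjusted limma p of the 6 calls lay between 0.0059 and 0.00974. Within GC strata none of the 315 bins was called, where 0.673 %, 0.613 % and 0.656 % of all bins were in the 3 knockouts.

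Genes that act with the fused kinase were described as a list of 20, of which 19 were long enough to test: adaptors such as GRB2, GAB2 and CRKL, the transcription factors STAT5A and STAT5B, and kinases such as JAK2 and LYN. A second list held 18 other partners of leukemia fusions, of which 17 were tested. In the limma fit over genes, 0 genes of all 11659 passed an adjusted p of 0.05 in any knockout. At an unadjusted p under 0.05, 1.81 % of genes were higher and 1.3 % lower in MUTYH-/, 3.4 % and 1.28 % in OGG1-/ and 1.96 % and 2.34 % in DKO. On the signalling list, 1 of 19 genes passed this limit in MUTYH-/, lower, and 0 in OGG1-/ and DKO, and on the partner list 0 of 17 passed in any knockout. The gene was GAB2, an adaptor that couples BCR-ABL1 to phosphoinositide 3-kinase, at 1.25 ± 0.128 in WT and 1.04 ± 0.0881 in MUTYH-/ (SD, n = 3, limma adjusted p = 1.0). Next by p in MUTYH-/ was SOS1, an exchange factor for RAS, at 0.977 ± 0.0899 and 1.20 ± 0.0453. In OGG1-/, PDGFRB, a receptor kinase, was at 2.22 ± 0.518 against 1.71 ± 0.258 in WT (limma adjusted p = 0.945). In DKO, MAP2K1, a kinase of the MAP kinase cascade, was at 2.46 ± 0.213 against 2.75 ± 0.186. The median difference from WT on the signalling list was -0.00496 in MUTYH-/, 0.0142 in OGG1-/ and -0.0522 in DKO, and on the partner list -0.000236, 0.00151 and -0.0502. Over all genes it was 0.0112, 0.0246 and -0.0148.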

How the data were processed

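The study made OG-seq and input libraries of HAP1 DNA, fragmented enzymatically and sequenced as paired reads. Per the labels and methods, the authors trimmed adapters with cutadapt 2.8, mapped to GRCh38 with Bowtie2 2.3.5.1 at default settings, marked duplicates with SAMtools, counted reads per 1 kb bin with bedtools, removed blacklisted bins, and subtracted input scaled by signal extraction scaling (SES). The deposited values are thus a score per bin, linear, in OG reads after subtraction, below 0 where scaled input exceeds OG reads. Duplicates were marked, and whether marked reads were counted is not given in the sources used here. Reads from sequence that also lies elsewhere, such as the partial copies of BCR on chromosome 22, can have been placed at any copy.

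From these values, whole read numbers of the pull-down and of 2 input runs were solved in at least 99.9994 % of bins per column, which gave the depth, input levels and counting errors (which cover counting only). The solution was tested on simulated data. Columns were scaled by their mean. GC content and motifs came from hg38, and exons from GENCODE. Parts of genes and flanks were compared over 12 columns with exact two-sided sign-flip tests, knockouts with WT by exact two-sided permutation tests, and bins and genes with limma 3.58.1 in R 4.3.3 with Benjamini-Hochberg adjustment. Bins entered limma with values below 0 set to 0, scaled to equal column totals, as log2 with a pseudocount of 1, if above 0 in at least 3 columns. Genes entered as mean scaled values weighted by their number of bins, at least 20. The authors used edgeR to compare genomic features between genotypes, not 1 kb bins or gene means. The deposited values are not counts, so edgeR was not used here, and it was not run on the solved read numbers. limma was tested on simulated data. Python 3.11.15, numpy 2.4.6, pandas 2.3.3 and scipy 1.17.1 were used.

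Named bins and genes were those with transcription starts, exons 12 to 16 of BCR and exon 2 of ABL1, the 3 highest and 3 lowest bins, every called bin, coding neighbours of at least 10 bins, the 3 genes most like each gene, and list members past the threshold or with the 2 smallest p. The genes, lists and tests were chosen with earlier results of these data known. Alternatives changed the GC correction, split point, flank width, summary, scaling, pseudocount, filter, percentile, block and columns. The ratio of OG to input reads and leaving out single columns were added after the values were seen. The column numbers were not assigned to clones, and the deviations of same-numbered columns did not correlate above 0.1 in every pair, so the numbers were not taken as pairs.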

Additional observations from a re-analysis of the deposited data

How the results depend on the processing

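The spread between columns was above the counting error, with an SD of 0.217 against 0.0756 in BCR and 0.171 against 0.0649 in ABL1, and with 3 columns per genotype no permutation test of a knockout could reach 0.05. Divided by the mean of the GC stratum, BCR minus its flanks became -0.0237, ABL1 minus its flanks 0.00526, and the 3′ minus 5′ difference of ABL1 0.000775. MUTYH-/ minus WT in BCR became 0.0140, and the 3′ minus 5′ input -0.00943 in BCR and 0.0156 in ABL1. With a split at the middle bin, the second portion minus the first was 0.239 in BCR (exact sign-flip p = 0.00537), 0.0964 in ABL1, and 0.0146 and -0.0288 for their input. With WT or DKO columns alone, the 3′ minus 5′ difference of BCR was -0.0546 and -0.0680. BCR minus its flanks was 0.131 with medians over bins (exact sign-flip p = 0.0708), -0.127 against flank bins in coding genes, and 0.0303 for OG reads divided by input reads (exact sign-flip p = 0.0669), which was added after the data were seen. Among differences from WT, without scaling MUTYH-/ in BCR was 1.55 and DKO in ABL1 1.71, both in reads per bin. DKO in BCR was -0.0106 when scaled to the mean of bins above 0, and DKO in ABL1 was 0.0708 with medians and 0.0112 after subtraction of the flanks. The cause of these changes was not tested.

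Leaving out the columns of each number in turn, the 3′ minus 5′ difference of BCR lay between 0.0553 and 0.143 and that of ABL1 between 0.237 and 0.335, where it missed 0.05 without the columns numbered 1 and without those numbered 2 (exact sign-flip p = 0.0625 each). BCR minus its flanks lay between 0.122 and 0.161 and missed 0.05 each time (exact sign-flip p of 0.0547 to 0.102), and ABL1 minus its flanks lay between -0.289 and -0.229, at the smallest exact sign-flip p that 8 columns allow (0.00781). The input difference lay between -0.0417 and -0.0326 in BCR and between 0.0323 and 0.0705 in ABL1, and missed 0.05 each time in BCR (exact sign-flip p of 0.0625 to 0.109) and without the columns numbered 3 in ABL1 (exact sign-flip p = 0.188). Against WT, BCR lay between -0.254 and 0.191 in MUTYH-/, 0.0853 and 0.204 in OGG1-/, and -0.0645 and 0.140 in DKO, and ABL1 between 0.0690 and 0.236, 0.0691 and 0.307, and -0.197 and 0.128. For BCR, MUTYH-/ was above WT without the columns numbered 2 (0.191) or 3 (0.00131) and DKO below it without those numbered 3 (-0.0645). For ABL1, DKO was above WT without those numbered 1 (0.128). Leaving out single columns, also added after the data were seen, ended no call, with 0.0474 to 0.124 for the 3′ minus 5′ difference of BCR, 0.236 to 0.308 for that of ABL1, 0.124 to 0.166 for BCR minus its flanks and -0.272 to -0.233 for ABL1 minus its flanks.

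OG-EBs of both genes together numbered 6, 9, 17 and 6 in WT, MUTYH-/, OGG1-/ and DKO. There were 0 in every genotype at the 99th percentile (0.136 % to 0.182 % of all bins). When all 3 columns had to pass there were 0, 0, 4 and 1 (0.102 %, 0.0995 %, 0.14 % and 0.0879 % of all bins). Ranked over all bins after division by the GC stratum mean, which can favour GC-poor bins, there were 1, 0, 0 and 0 (1.29 % to 1.68 % of all bins). Without each column number they lay between 1 and 3, 2 and 4, 6 and 10, and 2 and 3, where both remaining columns had to pass. Of all 2835235 bins, 12678 to 17916 then passed. Called bins were 2 in each knockout. There were 0 with Benjamini-Hochberg adjustment (at most 0.00132 % of all bins in a direction) and 0 when centred within GC strata (0.613 % to 0.673 %). In MUTYH-/ without scaling there was 1, where gains and losses were 0.355 % and 0.175 % of all bins. In DKO there were 4 without the filter (0.502 % and 0.536 % of all bins) and 5 on linear values (0.438 % and 0.513 %). Without each column number they lay between 3 and 4 in MUTYH-/, 1 and 3 in OGG1-/ and 1 and 4 in DKO. Gains and losses were then 0.155 % to 0.268 % of all bins each. Genes of the 2 lists that passed adjustment were 0 in every knockout and without each column number, and 1 passed an unadjusted p under 0.05 in MUTYH-/.

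Deviations of columns with the same number correlated at -0.0152 to 0.00970 over 1 kb bins, against -0.0119 to 0.0178 for other pairs of columns from different genotypes. Over 100 kb windows the ranges were -0.413 to 0.34 and -0.295 to 0.46, the highest between MUTYH-/ column 1 and DKO column 2. The numbers were not taken as pairs. With the replicate number as a block, BCR minus WT was -0.0205, 0.156 and 0.0257 (exact permutation p = 1.0, 0.25 and 0.75) and ABL1 minus WT 0.145, 0.181 and -0.0439 (exact permutation p = 0.5, 0.5 and 0.75), with 2 called bins in each knockout and 0 list genes. The block changed no call.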

Other observations

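The genes around BCR and ABL1 were described by their mean scaled OG value. Before BCR, GNAZ, the gene of a G protein subunit, was at 1.75 ± 0.310 (SD over 12 columns), RAB36, a small GTPase, at 1.69 ± 0.452 and RSPH14 at 1.63 ± 0.279. RSPH14 and GNAZ overlap on the chromosome and share bins. After BCR, DRICH1, RGL4, ZNF70 and MMP11 were at 1.43, 1.88, 1.85 and 1.93. Of these 7 neighbours, 3 were higher and 4 lower than in WT in MUTYH-/, and 4 and 3 in DKO. In OGG1-/, 4 of them had a higher mean than in WT and 3 a lower one. GNAZ was at 2.13 against 1.64, RAB36 at 2.11 against 1.41 and RSPH14 at 1.94 against 1.56, with limma p of 0.0147, 0.0404 and 0.0298 and an adjusted p of 0.945 each, where 3.4 % of all genes were higher at an unadjusted p under 0.05. MMP11 was at 2.06 against 1.63, DRICH1 at 1.44 against 1.62, RGL4 at 1.47 against 2.01 and ZNF70 at 1.88 against 1.90. DRICH1 had a limma adjusted p of 0.969, and the other 3 were too short for that fit. Around ABL1, the neighbours lay between 1.23 for NUP214 and 1.88 for FAM78A. Of these 11, 8 were higher than in WT in OGG1-/, 2 lower and 1 equal as rounded. In MUTYH-/ 5 were higher and 6 lower, and in DKO 4 and 7. The share of all genes above WT was not counted, so these counts and those around BCR were not tested against a background. For the 11659 genes of the limma fit, the median difference was 0.0246 for OGG1-/, 0.0112 for MUTYH-/ and -0.0148 for DKO. With a median above 0, a majority above WT in OGG1-/ was not special to these neighbours. NUP214, a nuclear pore gene that is itself a fusion partner of ABL1 in leukemia, had a GC content of 42.0 % and was the only neighbour below ABL1. HMCN2, ASS1, FUBP3, PRDM12 and EXOSC2 on the near side were at 1.58, 1.59, 1.43, 1.71 and 1.72, and FIBCD1, LAMC3, AIF1L and PLPP7 on the far side at 1.56, 1.65, 1.66 and 1.72.

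Over the 12 columns, the level of BCR was most like that of WNT7A (r = 0.946), NEK6 (0.930) and CFAP46 (0.913), and that of ABL1 most like CLIP2 (0.949), NUP98 (0.916) and TIPIN (0.915). These were the highest of 6785 genes with at least 50 bins, whose median r was 0.0114 with BCR and 0.0419 with ABL1, and the columns are shared libraries of unequal depth. TIPIN, on chromosome 15, had a mean scaled value of 2.81, near those of PML (2.87) and MAP2K1 (2.70). BCR and ABL1 correlated with each other at r = 0.634 over the same columns. These values are a description without a test.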
